A study of Mus musculus with 9 samples.

Results

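Ribosome footprints were examined on 10 genes that encode matricellular and adhesive proteins of the extracellular matrix: the thrombospondins Thbs1, Thbs2 and Thbs3, the CCN proteins Ctgf and Cyr61, and Sparc, Tnc, Postn, Spp1 and Fn1. They are 10 of the 36410 rows of the deposited count table. They were selected by gene symbol with results of these counts known, so the values given for them are a description, and no test of them is read. Ctgf and Cyr61 now have the symbols Ccn2 and Ccn1, under which the table holds no row, so each locus was counted once.

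The cells were 3 immortalized mouse striatal lines of the strain that the labels write as C57/BL6, with 3 libraries for each line. Control cells (STHdhQ7/Q7) carry 7 repeats on both Htt alleles, HD-het cells (STHdhQ7/Q111) carry 7 on one allele and 111 on the other, and HD-homo cells (STHdhQ111/Q111) carry 111 on both. The labels call them Glu repeats, and they lie in huntingtin, whose expanded glutamine tract causes Huntington disease (HD). All 3 lines are immortalized, and all received cycloheximide, which stops ribosomes on the mRNA, for 10 min before lysis. Ribosome profiling counts the mRNA fragments that ribosomes shield from nuclease, here 26 to 32 nt fragments of the 80S monosome fraction. Each genotype is represented by a single line, so genotype and line cannot be told apart. The 3 libraries of a line are numbered replicates of that line, and their spread does not cover differences between animals or between clones.

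Matricellular proteins are secreted into the extracellular matrix, where they regulate adhesion and growth factor signals more than they build the matrix. Most of them bind integrins on the cell surface. In the developing and injured brain they are made chiefly by glia, progenitors and vascular cells. Thrombospondins help excitatory synapses to form, and tenascin-C is a component of the neural stem cell niche.

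The libraries held between 22504543 and 41888701 counts. All 10 genes passed the filter on low counts, as did 12678 genes in all. Values are counts scaled to a total of 1000000 (CPM) on totals scaled with TMM factors, and a count of 0 allows up to 3 counts, which correspond to 0.0716 to 0.133 CPM (counting error only). Footprints on Htt ran from 28.1 to 30.0 CPM in control libraries, from 19.4 to 20.9 CPM in HD-het libraries and from 5.78 to 7.68 CPM in HD-homo libraries. No 2 libraries of a line agreed within sampling noise, and none was counted as a duplicate. The labelled cell type was checked on its markers. Drd1, Drd2, Bcl11b, Gad1 and Isl1, which mark striatal neurons, had at most 3 counts in every library, and 6 of 15 striatal neuron markers exceeded 1 CPM in each line. The neural precursor markers summed to 9586 to 9856 CPM in control libraries, with 9015 to 9841 CPM in HD-het libraries and 5992 to 6527 CPM in HD-homo libraries, mostly on Vim. Nes, a neural precursor intermediate filament, had 399.5 ± 82.6 CPM (SD, n = 3) in control cells, with 1086 ± 77.8 CPM in HD-het cells and 7.01 ± 0.611 CPM in HD-homo cells.

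The promoters below are those of the 4 genes in which a searched motif was found, and they do not span the responses. All 4 genes had more footprints in HD-het than in control cells. Spp1, Tnc and Postn had some of the widest fold gaps between the lines, while Cyr61 is a classical target of the YAP/TAZ-TEAD transcription factors. A promoter in the RefSeq table (GRCm38.p6, 250 bases before and 50 after a start site) was matched for 7 of the 10 genes. Each is written 5′ to 3′ on the strand of its gene, and the searched motifs found in it are in capitals. They are Cyr61 at chr3:145649936-145650235 (minus strand), Postn at chr3:54360857-54361156 (plus strand, the downstream of 2 listed starts), Tnc at chr4:64046966-64047265 (minus strand, the upstream of 2) and Spp1 at chr5:104434861-104435160 (plus strand, the upstream of 2).
Cyr61: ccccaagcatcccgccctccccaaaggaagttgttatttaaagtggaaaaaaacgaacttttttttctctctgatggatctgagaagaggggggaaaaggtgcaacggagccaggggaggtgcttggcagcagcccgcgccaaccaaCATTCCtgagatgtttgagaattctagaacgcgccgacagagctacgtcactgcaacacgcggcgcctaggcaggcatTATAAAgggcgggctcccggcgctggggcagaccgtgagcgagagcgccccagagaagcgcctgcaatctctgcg
Postn: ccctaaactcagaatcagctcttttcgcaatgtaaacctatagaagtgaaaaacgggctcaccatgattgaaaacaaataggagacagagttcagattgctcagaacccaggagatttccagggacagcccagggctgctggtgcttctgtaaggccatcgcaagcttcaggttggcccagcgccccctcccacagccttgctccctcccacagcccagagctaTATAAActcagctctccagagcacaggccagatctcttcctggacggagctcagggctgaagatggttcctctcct
Tnc: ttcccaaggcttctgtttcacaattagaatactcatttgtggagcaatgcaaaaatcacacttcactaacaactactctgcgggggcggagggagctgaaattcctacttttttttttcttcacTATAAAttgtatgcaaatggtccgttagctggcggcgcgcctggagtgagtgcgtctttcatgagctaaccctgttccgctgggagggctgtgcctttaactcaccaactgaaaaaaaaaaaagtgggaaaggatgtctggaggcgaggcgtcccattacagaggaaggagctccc
Spp1: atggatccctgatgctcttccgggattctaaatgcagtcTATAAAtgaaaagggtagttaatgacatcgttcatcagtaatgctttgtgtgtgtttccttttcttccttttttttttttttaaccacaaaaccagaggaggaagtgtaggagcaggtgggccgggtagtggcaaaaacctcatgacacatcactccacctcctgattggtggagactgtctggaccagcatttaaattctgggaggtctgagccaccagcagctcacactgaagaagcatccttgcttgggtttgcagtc

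The letters searched were the TEAD element GGAATG, the AP-1 element TGANTCA and the CArG box on both strands, and TATAAA on the strand of the gene. The CArG box is the binding motif of serum response factor. GGAATG was found in 14.6% of the 32544 promoters of this length, TGANTCA in 7.79%, the CArG box in 1.64% and TATAAA in 8.28%. The Cyr61 promoter held GGAATG, read as CATTCC on the gene's strand, beginning at position -103 (the start site is 0), and TATAAA at -25. TATAAA began at -26 in the Postn promoter shown, at -126 in that of Tnc and at -211 in that of Spp1. The other listed starts of Postn and Spp1 held none of the searched letters, and the other start of Tnc held TATAAA at -205. None of the searched letters was found in the promoters of Thbs2, Thbs3 and Sparc. The counts give 1 value for a whole gene and do not say which start site was used.

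Footprints on most of the 10 genes were highest in HD-het cells, and Thbs1, Thbs3, Sparc, Tnc and Spp1 were lowest in HD-homo cells, whose libraries lay below those of both other lines. Thbs2 alone overlapped in every comparison. In HD-het against control cells, 8 of the 10 were past the adjusted p threshold as higher and 0 as lower, where 31.0% and 29.1% of all genes tested were. In HD-homo against control cells 0 were higher and 5 lower, beside 23.3% and 22.3% of all genes. In HD-homo against HD-het cells 0 were higher and 9 lower, beside 34.6% and 32.8% of all genes. At a change of at least 2-fold 7, 3 and 8 of the 10 were past the threshold in these comparisons in turn, and 20.8%, 17.2% and 27.3% of all genes were. The lines did not overlap in 8, 5 and 9 of the 10, and in 71.2%, 55.5% and 69.5% of all genes. The mutant lines share the control libraries in their comparisons, and nothing is read from these counts because the genes were selected on these libraries. In bulk libraries, fewer cells of a type and less RNA per cell cannot be told apart, and without mRNA libraries a level of footprints is not a rate of translation per mRNA.

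**Figure D1:**
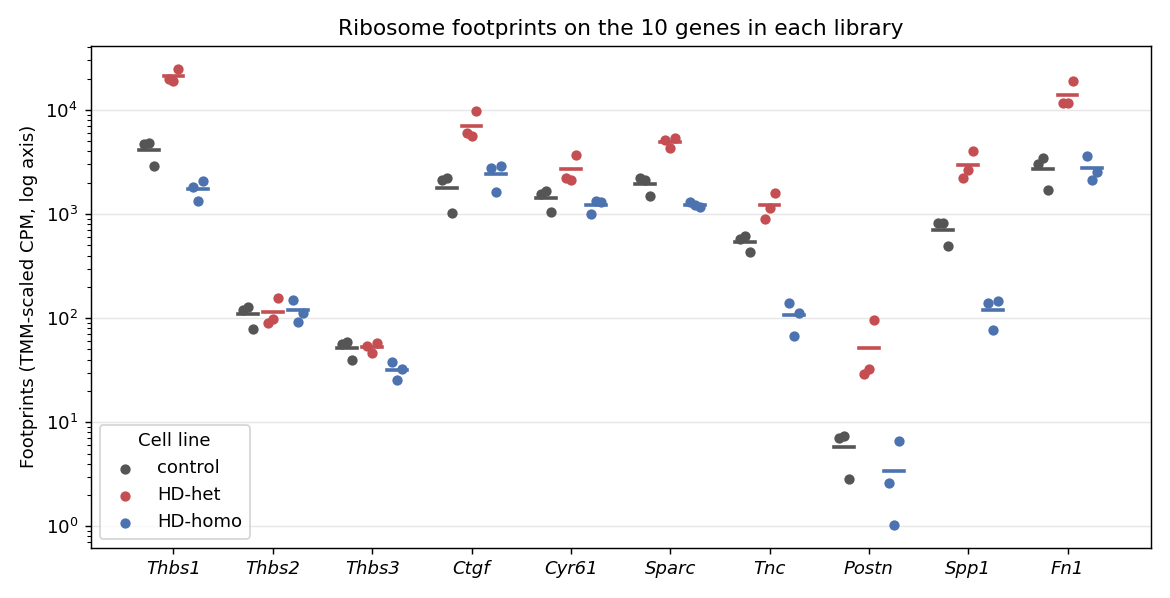
Ribosome footprints on the 10 genes, in CPM on a log axis, with a point for each library and a bar at the mean of each line (3 libraries). The HD-het points lie above the control points for all genes but Thbs2 and Thbs3, and the HD-homo points of Tnc and Spp1 lie far below both other lines.

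Thbs1 (chr2:118111876-118127133) encodes thrombospondin-1, a trimer that binds CD36 and CD47 and activates latent TGF-beta. It had 4706, 4778 and 2903 CPM in control libraries 1, 2 and 3, and 19991, 18934 and 24937 CPM in HD-het libraries 1, 2 and 3. The HD-homo libraries had 1839, 1340 and 2063 CPM. The 3 lines were separate, with HD-het highest and HD-homo lowest. The log2 difference from control was 2.37 ± 0.21 (SE, edgeR) in HD-het cells and -1.24 ± 0.20 in HD-homo cells. By raw count Thbs1 ranked 1st of all rows in every HD-het library, 10th, 10th and 19th in the control libraries, and 46th, 76th and 41st in the HD-homo libraries.

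Thbs2 (chr17:14665500-14694262) encodes thrombospondin-2, a trimer of nearly the same length that is cleared from the cell surface by LRP1. Its levels were 119.9, 127.1 and 78.6 CPM in control libraries, with 90.6, 98.4 and 156.8 CPM in HD-het libraries and 150.1, 92.1 and 113.3 CPM in HD-homo libraries. The ranges of the 3 lines overlapped. The log2 differences from control were 0.08 ± 0.24 (SE) in HD-het cells and 0.13 ± 0.24 in HD-homo cells, each smaller than its error. Their sign turned when single libraries were left out. Without control 3, HD-het 3 and HD-homo 2, chosen after seeing these values, the HD-het difference was -0.39 ± 0.13. It was then past the threshold, which is not read as a test. The counts of Thbs1 over those of Thbs2 within a library, a ratio that no scaling between libraries enters, were 37.9 ± 1.19 (SD, n = 3) in control cells, with 190.7 ± 30.8 in HD-het cells and 15.0 ± 3.00 in HD-homo cells. The ratio was thus steady among control libraries and separate between the lines.

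Thbs3 (chr3:89215180-89226841) encodes a thrombospondin of the pentameric subgroup. It had 56.3, 58.4 and 40.0 CPM in control libraries and 53.9, 46.1 and 58.0 CPM in HD-het libraries, which overlapped. The HD-homo libraries had 37.6, 25.6 and 32.1 CPM, below all the others. HD-het cells differed from control by 0.03 ± 0.17 (SE) on the log2 scale and HD-homo cells by -0.70 ± 0.17. The annotated lncRNA LOC115489723 overlaps the locus and has no row in the table. Whether counting used strand is not given in the sources used here.

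Ctgf (chr10:24595442-24598683) and Cyr61 (chr3:145646971-145649985) encode CCN proteins, short secreted integrin ligands whose genes respond quickly to serum, TGF-beta and YAP/TAZ. Ctgf had 2146, 2235 and 1022 CPM in control libraries, 5962, 5619 and 9713 CPM in HD-het libraries and 2753, 1625 and 2903 CPM in HD-homo libraries. Its HD-het values were above all others, while control and HD-homo values overlapped. HD-het cells differed from control by 1.98 ± 0.32 (SE) on the log2 scale and HD-homo cells by 0.43 ± 0.31. Without control 3, HD-het 3 and HD-homo 2, chosen after seeing these values, the HD-homo difference was 0.37 ± 0.08. It was then past the threshold, which is not read as a test. The lncRNA Gm15270, with no row in the table, overlaps Ctgf.

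Cyr61 moved less. Its levels were 1545, 1659 and 1051 CPM in control libraries, with 2246, 2137 and 3683 CPM in HD-het libraries and 1007, 1345 and 1311 CPM in HD-homo libraries. Again the HD-het values lay above all others and the remaining 2 lines overlapped. HD-het cells differed from control by 0.92 ± 0.22 (SE) on the log2 scale and HD-homo cells by -0.22 ± 0.22. With the same 3 libraries left out the HD-homo difference was -0.47 ± 0.12, past the threshold but likewise not read as a test. Counts of Ctgf over those of Cyr61 were 1.24 ± 0.229 (SD, n = 3) in control cells, with 2.64 ± 0.0128 in HD-het cells and 2.05 ± 0.776 in HD-homo cells. The ratio was close to constant among HD-het libraries, although the level of each gene varied there, and it ranged from 1.21 to 2.73 among HD-homo libraries.

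Sparc (chr11:55394159-55420080) encodes osteonectin, a calcium- and collagen-binding glycoprotein. It had 2209, 2146 and 1481 CPM in control libraries, with 5107, 4295 and 5411 CPM in HD-het libraries and 1300, 1225 and 1181 CPM in HD-homo libraries. The lines were separate, and the HD-homo libraries lay closest together, with a coefficient of variation of 4.85%. On the log2 scale the difference from control was 1.34 ± 0.14 (SE) in HD-het cells and -0.65 ± 0.14 in HD-homo cells.

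Tnc (chr4:63959785-64047015) encodes tenascin-C, a hexameric glycoprotein of developing and injured tissue. Its levels were 576, 615 and 429 CPM in control libraries, with 902, 1147 and 1604 CPM in HD-het libraries and 139.7, 67.5 and 112 CPM in HD-homo libraries. The lines were separate, and as a fold the gap between HD-homo and control exceeded that between HD-het and control. On the log2 scale the difference from control was 1.17 ± 0.26 (SE) in HD-het cells and -2.34 ± 0.27 in HD-homo cells, and it was -3.52 ± 0.28 between HD-homo and HD-het. The overlapping lncRNA 8030451A03Rik had 0 counts in all libraries.

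Spp1 (chr5:104435111-104441053) encodes osteopontin, a phosphorylated ligand of integrins and CD44. It had 812, 829 and 489.9 CPM in control libraries, with 2239, 2647 and 4064 CPM in HD-het libraries and 139.5, 77.1 and 145.7 CPM in HD-homo libraries. As a fold it had the widest gap between HD-het and HD-homo of the 10 genes, with no overlap. The log2 difference was -4.63 ± 0.33 (SE) between HD-homo and HD-het, 2.07 ± 0.29 between HD-het and control and -2.56 ± 0.30 between HD-homo and control.

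Postn (chr3:54359267-54391041) encodes periostin, a ligand of alpha-v integrins that promotes collagen cross-linking. Per coding length it had the lowest level of the 10 in control and HD-homo cells. Its values were 7.06, 7.42 and 2.86 CPM in control libraries, with 29.0, 32.5 and 95.2 CPM in HD-het libraries and 2.59, 1.03 and 6.65 CPM in HD-homo libraries. HD-het was separate from both other lines, which overlapped. The counts behind the HD-homo values were 93, 27 and 150, the lowest of the 10 genes. The log2 difference from control was 3.15 ± 0.59 (SE) in HD-het cells, 2.38 without HD-het 3 and 2.08 without HD-het 3, control 3 and HD-homo 2. Between HD-homo and HD-het it was -3.97 ± 0.63, -3.21 without HD-het 3, -4.78 without HD-homo 3 and -2.80 without the 3 libraries. Between HD-homo and control it was -0.82 ± 0.64, not past the threshold, and -1.63 without HD-homo 3. The overlapping lncRNA Gm31095 had 0 counts.

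Fn1 (chr1:71585473-71653280) encodes fibronectin, the pericellular matrix protein that integrin alpha-5 beta-1 assembles into fibrils. Its levels were 3027, 3428 and 1713 CPM in control libraries, with 11634, 11570 and 19021 CPM in HD-het libraries and 3600, 2121 and 2543 CPM in HD-homo libraries. HD-het was separate, and control and HD-homo overlapped. The log2 difference from control was 2.37 ± 0.29 (SE) in HD-het cells, the same size as for Thbs1, and 0.02 ± 0.28 in HD-homo cells. Counts of Thbs1 over those of Fn1 were 1.55 ± 0.151 (SD, n = 3) in control cells, with 1.56 ± 0.215 in HD-het cells and 0.651 ± 0.151 in HD-homo cells. Counts of Fn1 over those of Tnc were 4.94 ± 0.838, 11.6 ± 1.42 and 26.6 ± 4.41 for control, HD-het and HD-homo libraries. The balance between these genes therefore differed among the lines: Thbs1 and Fn1 were in like proportion in control and HD-het cells, and Tnc was lower relative to Fn1 in both mutant lines. Between HD-homo and HD-het cells the log2 differences of the remaining genes were -3.61 ± 0.22 (SE) for Thbs1, -2.35 ± 0.29 for Fn1, -1.55 ± 0.32 for Ctgf, -1.14 ± 0.22 for Cyr61, -0.72 ± 0.17 for Thbs3 and 0.04 ± 0.24 for Thbs2, while Sparc was 3.996-fold lower.

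**Figure D2:**
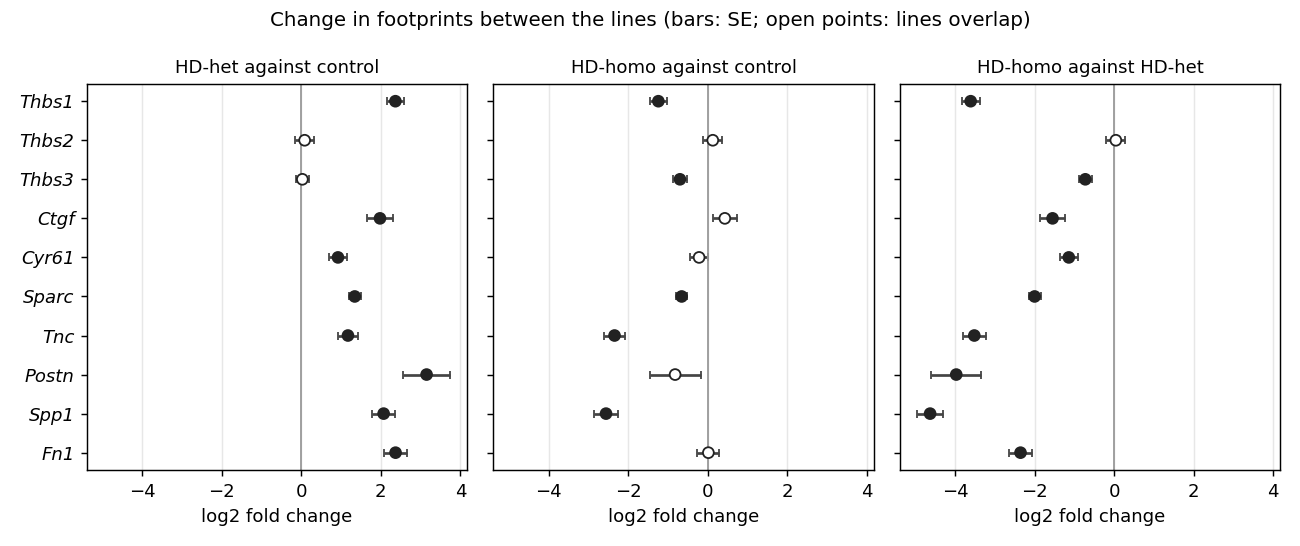
Log2 fold change of footprints on each gene in the 3 comparisons, with standard errors as bars. Filled points mark genes whose lines do not overlap, and open points those that do: 8, 5 and 9 of the 10 are filled from left to right.

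The 10 genes took 1.35% ± 0.352 (SD, n = 3) of all counts in control libraries, 5.26% ± 0.973 in HD-het libraries and 0.999% ± 0.148 in HD-homo libraries. The HD-het shares were 4.76%, 4.64% and 6.38%, far above the control shares, which lay between 0.944% and 1.59%. The HD-homo shares of 1.12%, 0.834% and 1.04% overlapped with control. Thbs1 alone took 0.414% ± 0.101 of counts in control libraries, with 2.06% ± 0.226 in HD-het libraries and 0.178% ± 0.0338 in HD-homo libraries. Within the set its part was 30.9% ± 0.726 in control libraries, with 39.5% ± 2.79 in HD-het libraries and 17.8% ± 1.72 in HD-homo libraries. The set was thus led by Thbs1 in control and HD-het cells, while Fn1 and Ctgf each had more counts than Thbs1 in HD-homo cells.

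**Figure D3:**
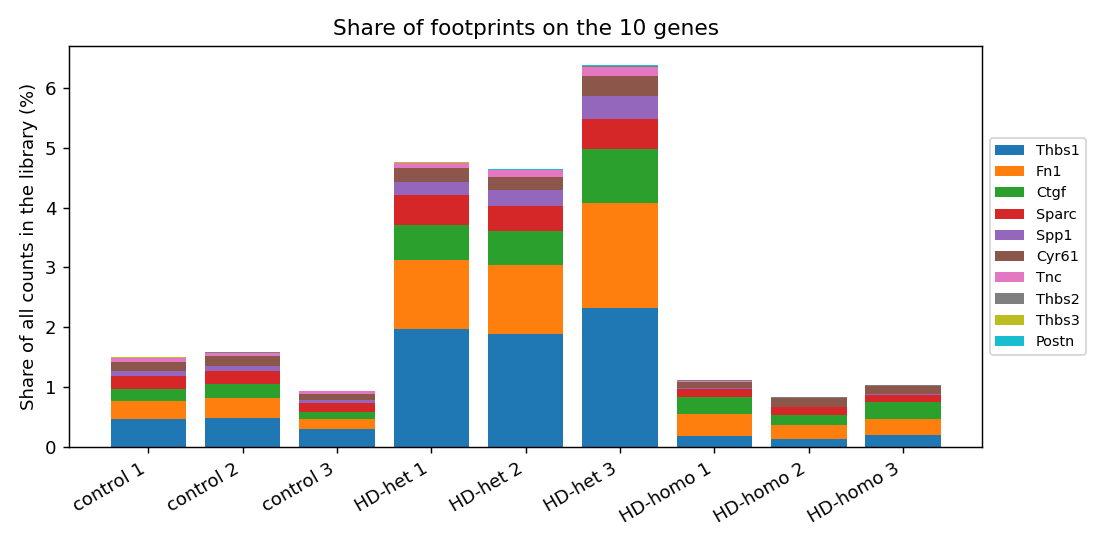
Share of all counts in each library that fell on the 10 genes, in percent, stacked by gene. The HD-het bars reach 4.64% to 6.38% and the other 6 bars 0.834% to 1.59%, and Thbs1 is the lowest block.

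Levels were compared between genes per coding length, as CPM per 1000 codons of the longest coding sequence annotated for the gene in GENCODE. In control cells the order was Sparc, Ctgf, Cyr61, Thbs1, Spp1, Fn1, Tnc, Thbs2, Thbs3 and Postn, from 5859 ± 1216 (SD, n = 3) for Sparc to 6.90 ± 3.03 for Postn. Each of the first 5 overlapped with its neighbour in this order, and from Spp1 downwards the neighbours were separate, while within a library each neighbour pair kept this order in 3 of 3 libraries. In HD-het cells the order was Ctgf, Thbs1, Sparc, Spp1, Cyr61, Fn1, Tnc, Thbs2, Postn and Thbs3. Ctgf had 20396 ± 6526 and Thbs1 18179 ± 2737 CPM per 1000 codons there, which overlapped, and so did each following pair down to Fn1. Fn1, Tnc and Thbs2 were separate, whereas Thbs2, Postn and Thbs3 overlapped in turn. Within a library Ctgf was above Thbs1 in 2 of the 3 HD-het libraries and Postn above Thbs3 in 1, and the other HD-het pairs kept their order in all 3. In HD-homo cells the order was Ctgf, Sparc, Cyr61, Thbs1, Fn1, Spp1, Thbs2, Tnc, Thbs3 and Postn. Only Thbs1 with Fn1 and Tnc with Thbs3 overlapped among neighbours, and each pair kept its order in 3 of 3 libraries. Spp1, at 409.4 ± 128.6 CPM per 1000 codons in HD-homo cells, was below Fn1 at 1112 ± 307.6, the reverse of the order in the other lines, and Tnc, at 50.4 ± 17.2, was below Thbs2 at 101.1 ± 25.05.

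The 10 genes also varied together among libraries of one line, which was seen in these values and not fixed beforehand. All 10 were lowest in control 3 among the control libraries, where 36.4% of all genes tested were lowest. All 10 were highest in HD-het 3 among the HD-het libraries, where 42.1% of all genes were highest. Of the 10, 8 were lowest in HD-homo 2, where 37.3% of all genes were, and the exceptions were Cyr61, lowest in HD-homo 1, and Sparc, lowest in HD-homo 3. On the log2 scale the median gene of the set was 0.68 below the mean of the other control libraries in control 3, by 0.47 to 1.20 over the 10 genes. In HD-het 3 it was 0.72 above the mean of the other HD-het libraries. The median coefficient of variation of the 10 genes was 24.9% in control cells, with 30.9% in HD-het cells and 26.2% in HD-homo cells, and that of the 7922 genes with at least 10 CPM was 5.54%, 7.66% and 10.4%. The spread between libraries was larger than that of a typical gene in every line, and the 10 genes are not 10 independent observations of the lines. Control 3 and HD-het 3 were each the shallowest library of their line, and HD-homo 2 was not. Control 3 had 25927603 counts beside 26504463 in control 1, and HD-het 3 had 22781306 beside 26707175 in HD-het 1. The part of depth in this pattern was not tested.

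**Figure D4:**
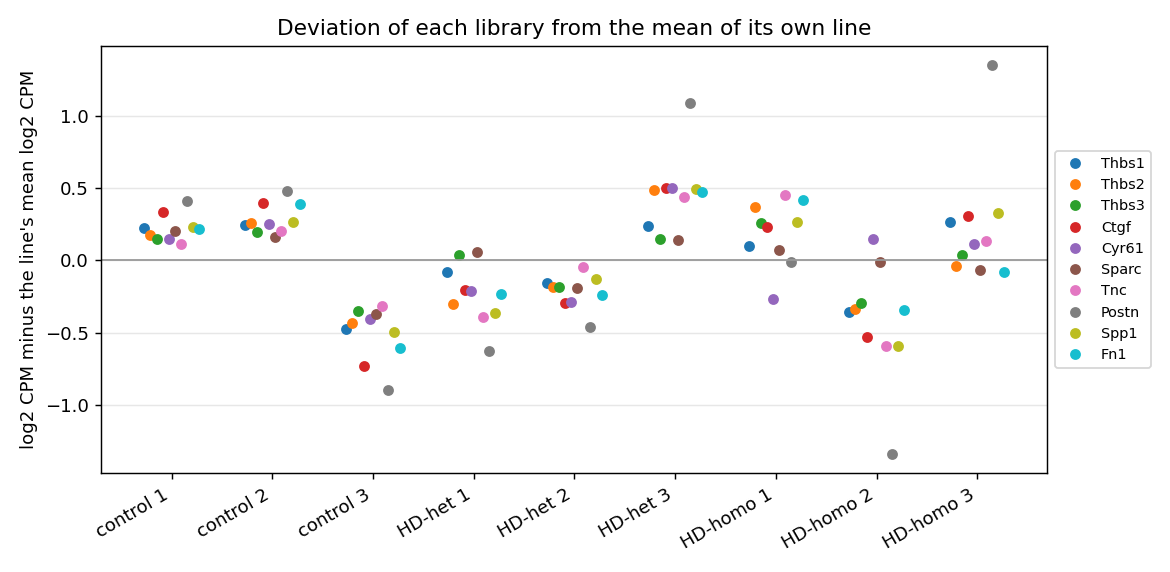
Deviation of log2 CPM in each library from the mean log2 CPM of its own line, with a point for each of the 10 genes. All points lie below 0 in control 3 and above 0 in HD-het 3, and Postn deviates most, reaching 1.35 in HD-homo 3 and -1.34 in HD-homo 2.

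Markers of mural cells and fibroblasts were, like most of these genes, highest in HD-het cells as a sum, and this sum lay above control in HD-homo cells. Of 8 such markers, 6 exceeded 1 CPM in each line, and Rgs5, a defining pericyte marker, had at most 3 counts in every library. Their summed level was 4152, 4805 and 2608 CPM in control libraries, with 16160, 18710 and 20516 CPM in HD-het libraries and 6951, 5533 and 6110 CPM in HD-homo libraries. The HD-homo sums lay above every control sum. Within the lines the sum was lowest in control 3 and HD-homo 2 and highest in HD-het 3. Most of it was Col1a1, the alpha-1 chain of type I collagen, which had 3343 ± 965.8 CPM (SD, n = 3) in control cells, with 16518 ± 1635 CPM in HD-het cells and 4567 ± 496.1 CPM in HD-homo cells. Pdgfrb and Col3a1 were, like Col1a1, highest in HD-het cells. Pdgfrb had 353.6 ± 61.0 CPM in HD-het cells against 45.9 ± 11.5 CPM in control and 56.3 ± 19.0 CPM in HD-homo cells. Col3a1 had 1483 ± 563.7 CPM in HD-het cells against 431.2 ± 143.2 CPM in control and 351.5 ± 36.1 CPM in HD-homo cells. In contrast, Col1a2, Dcn and Pdgfra were highest in HD-homo cells. Col1a2 had 1027 ± 135.2 CPM in HD-homo cells against 24.0 ± 5.51 CPM in control and 88.9 ± 27.1 CPM in HD-het cells. Dcn, the proteoglycan decorin, had 40.6 ± 3.79 CPM in HD-homo cells against 7.30 ± 1.89 CPM in control and 11.5 ± 1.27 CPM in HD-het cells. Pdgfra had 155.2 ± 36.6 CPM in HD-homo cells against 3.81 ± 1.15 CPM in control and 6.85 ± 2.23 CPM in HD-het cells. The part of such cells or of this state of the cells in the results was not tested. Summed microglia markers, nearly all Tmem119, ran from 5.00 to 6.83 CPM in control libraries, from 18.9 to 27.0 CPM in HD-het libraries and from 4.82 to 6.21 CPM in HD-homo libraries. This sum too was lowest in control 3 and HD-homo 2 and highest in HD-het 3 within the lines, and its part in the results was not tested. Aif1, Cx3cr1 and Itgam had at most 3 counts in every library. Summed endothelial and oligodendrocyte markers were at most 2.36 and 1.11 CPM, and astrocyte markers lay between 8.17 and 20.6 CPM.

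Genes around the set were taken from 5 lists written from general knowledge: relatives of the 10, their receptors, enzymes that modify or cleave them, the YAP/TAZ-TEAD pathway and the TGF-beta pathway. They held 91 genes, of which 81 were tested. The lists were chosen with earlier results of these data known, so their counts and p-values do not come from an unselected set. In HD-het against control cells 63 of the 81 were higher and 9 lower past an adjusted p of 0.05 (edgeR quasi-likelihood test), with a median log2 change of 1.03, where the median of all genes tested was 0.02, as in the other comparisons, and 31.0% and 29.1% of all genes were past the threshold as higher and lower. In HD-homo against control cells 22 rose and 26 fell (median -0.02), beside 23.3% and 22.3% of all genes. In HD-homo against HD-het cells 16 rose and 55 fell (median -1.03), beside 34.6% and 32.8% of all genes. Among the 81, 53 were lowest in control 3, 53 highest in HD-het 3 and 51 lowest in HD-homo 2, beside 36.4%, 42.1% and 37.3% of all genes. By list, in the same order, these were 13, 12 and 12 of 16 receptors and 12, 12 and 11 of 13 enzymes. They were 10, 7 and 11 of 13 relatives and 10, 9 and 8 of 14 TGF-beta genes. The YAP/TAZ-TEAD genes, with 8, 13 and 9 of 25, were near the shares of all genes in control 3 and HD-homo 2.

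All 16 receptors tested rose in HD-het against control cells, by a median of 1.30 on the log2 scale. In HD-homo against HD-het cells 15 fell and 0 rose (median -2.31), and in HD-homo against control cells 7 were lower and 1, Cd47, higher. Among all genes tested, 31.0% and 29.1%, 34.6% and 32.8%, and 23.3% and 22.3% were higher and lower in these comparisons in turn. Itgb3, the beta-3 integrin chain that pairs with alpha-v, rose from 17.2 ± 5.11 CPM (SD, n = 3) in control to 118.4 ± 2.37 CPM in HD-het cells (adjusted p = 1.0e-05). Itga8 had 1, 4 and 1 counts in control libraries, with 287, 381 and 253 in HD-het libraries and 0, 1 and 4 in HD-homo libraries (adjusted p = 8.3e-08 for HD-het against control and 3.9e-08 for HD-homo against HD-het). Itga4 had 35, 46 and 32 counts in control libraries, with 271, 391 and 197 in HD-het libraries and 0, 0 and 2 in HD-homo libraries (adjusted p = 7.6e-07 and 1.2e-08 for the same comparisons). Counts this low leave the size of the fold uncertain, so none is given for these alpha integrin chains. Itga3 was 206.9 ± 35.5 CPM in control cells, with 376.3 ± 11.9 CPM in HD-het cells and 31.8 ± 10.997 CPM in HD-homo cells, lower in HD-homo than in control (adjusted p = 1.3e-06) and in HD-het cells (adjusted p = 1.2e-07). Lrp1, the endocytic receptor that clears thrombospondins, fell by 1.21 ± 0.22 (SE) on the log2 scale in HD-homo against control cells (adjusted p = 0.00090). Cacna2d1, the synaptic thrombospondin receptor, fell by 1.16 ± 0.14 there (adjusted p = 5.4e-05).

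Of the 13 relatives tested, 9 were higher and 1 lower in HD-het against control cells, and 6 were higher and 1 lower in HD-homo against control cells. In HD-homo against HD-het cells 6 relatives were higher and 6 lower. Among all genes tested, 31.0% and 29.1%, 23.3% and 22.3%, and 34.6% and 32.8% were higher and lower in these comparisons in turn. The lower gene in HD-het cells was Tnxb, a tenascin, with 2.16 ± 0.152 CPM in control and 0.759 ± 0.0450 CPM in HD-het cells. Tgfbi, a fasciclin-domain relative of Postn, had 3.71 ± 1.32 CPM (SD, n = 3) in control cells, with 14.8 ± 3.12 CPM in HD-het cells and 122.7 ± 18.7 CPM in HD-homo cells. It rose in HD-het (adjusted p = 3.9e-05) and in HD-homo cells (adjusted p = 4.0e-08), and rose again from HD-het to HD-homo cells (adjusted p = 5.1e-07), opposite to Postn. Nov, a CCN protein like Ctgf, had 5.66 ± 1.26 CPM in control cells, with 11.5 ± 3.11 CPM in HD-het cells and 20.6 ± 3.43 CPM in HD-homo cells. It was higher than control in HD-het (adjusted p = 0.0020) and in HD-homo cells (adjusted p = 3.3e-05). Fstl1, a follistatin-like relative of Sparc, had 930.5 ± 201.5 CPM in control cells, with 2914 ± 151.4 CPM in HD-het cells and 819.9 ± 85.0 CPM in HD-homo cells (adjusted p = 4.2e-06 for HD-het against control and 1.0e-06 for HD-homo against HD-het). Wisp1, another CCN protein, rose from 58.9 ± 12.8 to 168.3 ± 4.70 CPM in HD-het cells (adjusted p = 1.7e-05). Smoc2, a modular calcium-binding protein related to Sparc, had 32.2, 14.8 and 78.4 CPM in HD-homo libraries against 8.65, 7.53 and 12.6 CPM in HD-het libraries (adjusted p = 0.0026). Its log2 difference there was 2.13 ± 0.50 (SE), with 1.32 without HD-homo 3 and 2.77 without control 3, HD-het 3 and HD-homo 2.

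Of the 13 enzymes tested, 11 were higher and 1 lower in HD-het against control cells, 3 higher and 6 lower in HD-homo against control cells, and 2 higher and 10 lower in HD-homo against HD-het cells. Among all genes tested, 31.0% and 29.1%, 23.3% and 22.3%, and 34.6% and 32.8% were higher and lower in these comparisons in turn. Tgm2, the transglutaminase that cross-links fibronectin and osteopontin, rose from 1.28 ± 0.296 CPM (SD, n = 3) to 11.6 ± 2.55 CPM in HD-het cells (adjusted p = 1.0e-06). Fam20c, the kinase that phosphorylates osteopontin, rose from 2.89 ± 0.672 to 10.2 ± 2.45 CPM (adjusted p = 0.00012). The membrane protease Mmp14 had 193.9 ± 46.8 CPM in control cells, with 610.1 ± 24.96 CPM in HD-het cells and 99.0 ± 23.7 CPM in HD-homo cells (adjusted p = 2.7e-05 for HD-het against control and 6.3e-07 for HD-homo against HD-het). Bmp1, the procollagen protease, fell by 2.14 ± 0.24 (SE) on the log2 scale in HD-homo against HD-het cells (adjusted p = 1.2e-05). The other direction was seen for Mmp2, a gelatinase, which rose from 17.5 ± 3.31 to 148.2 ± 30.9 CPM in HD-homo against control cells (adjusted p = 3.0e-07). Adamts1, a protease that cleaves thrombospondins, was 59.2 ± 10.1 CPM in HD-homo and 10.9 ± 3.60 CPM in HD-het cells (adjusted p = 2.4e-06).

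Of the 25 YAP/TAZ-TEAD genes tested, 15 were higher and 6 lower in HD-het against control cells, where 31.0% and 29.1% of all genes were. Their median log2 change there was 0.34, below that of the other 4 lists. In HD-homo against control cells 6 were higher and 10 lower, where 23.3% and 22.3% of all genes were. In HD-homo against HD-het cells 6 were higher and 14 lower, where 34.6% and 32.8% of all genes were. Ankrd1, a cardiac ankyrin repeat protein used like Ctgf and Cyr61 as a marker of YAP activity, went the other way from both. It had 262.1, 247.5 and 234.5 CPM in control libraries, 3.42, 2.91 and 5.96 CPM in HD-het libraries and 158.2, 381.1 and 230.6 CPM in HD-homo libraries. Its log2 change was -5.96 ± 0.36 (SE) in HD-het against control cells (adjusted p = 2.5e-07), where Ctgf and Cyr61 were higher. Tissue factor, F3, rose by 2.79 ± 0.19 in HD-het cells (adjusted p = 6.6e-07), and Ccdc80, a matrix protein, by 2.54 ± 0.24 (adjusted p = 6.5e-06). Nt5e, an ectonucleotidase, rose by 2.78 ± 0.28 in HD-het against control cells (adjusted p = 1.1e-05). In HD-homo against control cells it rose by 3.92 ± 0.28 (adjusted p = 6.4e-07). Axl, a receptor kinase, fell by 1.34 ± 0.19 there (adjusted p = 0.00014), and Crim1, a transmembrane regulator of BMPs, fell by 1.08 ± 0.23 (adjusted p = 0.0026). In HD-homo against HD-het cells Crim1 fell by 2.27 ± 0.24 (adjusted p = 7.2e-06) and Ccdc80 fell by 3.01 ± 0.25 (adjusted p = 1.1e-06).

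Of the 14 TGF-beta pathway genes, 12 were higher and 1, Tgif1, lower in HD-het against control cells, with a median log2 change of 1.20. In HD-homo against control cells 6 were higher and 2 lower, and in HD-homo against HD-het cells 2 were higher and 10 lower. Among all genes tested, 31.0% and 29.1%, 23.3% and 22.3%, and 34.6% and 32.8% were higher and lower in these comparisons in turn. The ligand Tgfb2 had 26.3 ± 7.29 CPM (SD, n = 3) in control cells, with 132.4 ± 21.6 CPM in HD-het cells and 23.7 ± 1.91 CPM in HD-homo cells (adjusted p = 2.4e-06 for HD-het against control and 7.5e-07 for HD-homo against HD-het). Ltbp1, which tethers latent TGF-beta to fibronectin-rich matrix, rose from 407.1 ± 127.1 to 2100 ± 112.4 CPM in HD-het cells (adjusted p = 1.4e-05). The receptor Tgfbr2 had 31.8 ± 2.80 CPM in control cells, with 54.4 ± 5.16 CPM in HD-het cells and 136.8 ± 16.8 CPM in HD-homo cells. It was higher than control in HD-het (adjusted p = 0.00014) and in HD-homo cells (adjusted p = 7.7e-08). Among the latent TGF-beta binding proteins, Ltbp2 rose by 3.44 ± 0.62 (SE) on the log2 scale in HD-het against control cells (adjusted p = 0.00058). In HD-homo against control cells it rose by 4.16 ± 0.61 (adjusted p = 0.00019), and by 3.50 without HD-homo 3. Ltbp4 fell by 1.47 ± 0.28 against control (adjusted p = 0.0013) and fell by 2.43 ± 0.28 against HD-het cells (adjusted p = 1.8e-05).

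**Figure D5:**
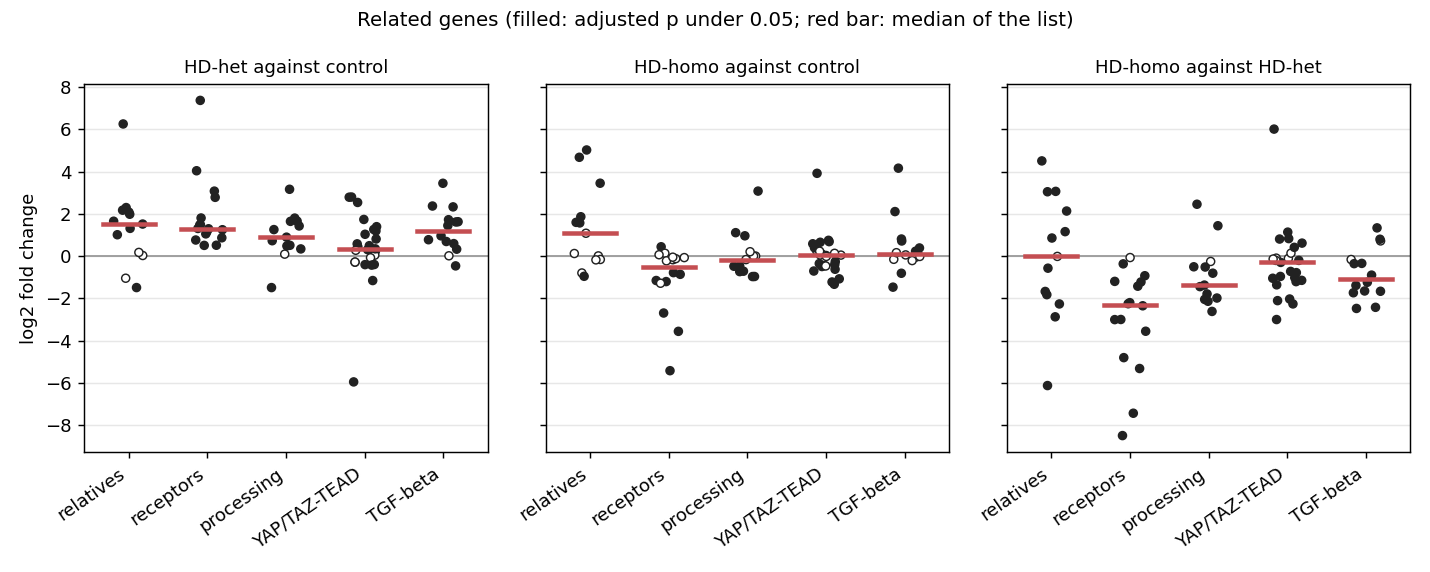
Log2 fold change of the 81 related genes tested, by list, in the 3 comparisons, with a point for each gene and a red bar at the median of the list. Filled points are past an adjusted p of 0.05 (edgeR). The receptor medians are 1.30, -0.51 and -2.31 from left to right, and the lone low point on the left is Ankrd1. Genes near 0 counts in a line have fitted changes of uncertain size.

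The genes whose footprint profile was most like that of a member were found for Spp1, Postn and Thbs1, the members with the widest range between the lines. Likeness was the root mean square difference of log2 profiles over the 9 libraries, each centred on its own mean, among 7912 genes with a mean of at least 10 CPM. It is a description, and the profiles share the same libraries. Closest to Thbs1 were Lrp4, Col4a1 and Epha4, with differences of 0.13, 0.14 and 0.17. Col4a1, a chain of basement membrane collagen, had mean levels of 336.0 CPM in control cells, with 1809 CPM in HD-het cells and 166.8 CPM in HD-homo cells. Closest to Spp1 were Jag1, Mmp10 and H2-T23, with differences of 0.25, 0.28 and 0.30. Jag1, a Notch ligand, had 97.1 CPM in control cells, with 380.2 CPM in HD-het cells and 11.6 CPM in HD-homo cells. Postn had no profile as close: Olfml2b, Lrp4 and Col4a1 differed from it by 0.46, 0.55 and 0.58.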

How the data were processed

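Ribosome footprints of 9 libraries (3 lines, 3 libraries each) were used. The authors deposited a table of whole-number fragment counts, with a row for each symbol and a column for each library, before any normalization. The submitters' processing notes name cutadapt, Bowtie 1.0.1 and mm10. The counting program, annotation and use of strand are not given in the sources used here. Columns were matched to samples by title, and 0 were left out. All genes passing filterByExpr were fitted in R 4.3.3 with edgeR 4.0.16 and limma 3.58.1 (quasi-likelihood F test, all 9 libraries, TMM factors, line means), and Benjamini-Hochberg adjustment ran over 12678 genes (threshold 0.05). SE is the log2 change over the square root of F. CPM used library totals (22504543 to 41888701 counts) multiplied by TMM factors. Scripts were tested on simulated data. P-values measure the spread between replicate libraries of 1 line each.

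The 10 genes and all lists were chosen with earlier results of these data known. Of the related genes, those named in a comparison were past the threshold, changed at least 2-fold and had at least 10 CPM in the higher line, up to 3 for each list by size of change. A gene that met this rule is not reported here. Cd47, Tnxb and Tgif1 were named after their values were seen. The HD-het against control changes of Nov, Mmp2, Nt5e, Tgfbr2 and Ltbp2 are given outside this rule. A gene named in a comparison may be past the threshold in others as well. Alternatives were RLE factors, totals alone, totals and factors without the 10 genes, no filter, a minimum of 10 counts per library, DESeq2 1.42.0, only the 6 libraries compared, the replicate block, 1 row per locus (288 rows under older symbols dropped), another denominator of the shares, and leaving out libraries. Gene positions and promoters are from RefSeq (GRCm38.p6, the same assembly as mm10).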

Additional observations from a re-analysis of the deposited data

Results flagged for a closer look

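Against the shared control libraries, Thbs1, Sparc, Tnc and Spp1 were higher in every HD-het library and lower in every HD-homo library. The log2 change between HD-homo and HD-het cells was -3.607 for Thbs1, -1.999 for Sparc, -3.515 for Tnc and -4.626 for Spp1. No test of this difference is read for these genes, which were selected with these counts known.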

How the results depend on the processing

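Under each other scaling, test, filter and set of libraries in the fit, the counts of the 10 genes past the threshold stayed at 8 higher and 0 lower in HD-het against control, 0 and 5 in HD-homo against control, and 0 and 9 in HD-homo against HD-het, as they did when each library was left out in turn. With the replicate block these counts were the same, and of the 81 related genes 62 were higher and 9 lower in HD-het against control cells. Same-numbered libraries deviated from their line means with correlations of -0.42 to 0.20, and differently numbered ones with -0.34 to 0.45. No effect shared by same-numbered libraries was seen, but these values cannot tell whether they were prepared together. Leaving out control 3, HD-het 3 and HD-homo 2 together, chosen after seeing the data, added Thbs2 as lower in HD-het against control (1 gene in place of 0) and as higher in HD-homo against HD-het (1 in place of 0), and Ctgf as higher in HD-homo against control (1 in place of 0). Cyr61 was then added to the lower genes of HD-homo against control, which came to 6. The related genes past the threshold numbered 55 to 64 higher in HD-het against control cells over all alternatives. Leaving out the 10 most abundant other rows from the totals gave shares of 1.45%, 5.64% and 1.06% for the control, HD-het and HD-homo lines. Fitted changes of Itga4, Itga8, Smoc2, Ltbp2 and Postn moved by more than 1.5-fold when single libraries were left out, with the direction and call kept for each that was past the threshold. At this depth Postn in HD-homo cells and genes near 3 counts are measured least well.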
